A study of Sus scrofa with 6 samples.

Results

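The genes described here are those of the TRIM and RNF ubiquitin ligase classes, taken as rows whose symbol in the deposited table is TRIM or RNF followed by a digit. TRIM63, the muscle atrophy ligase, was left out by the choice of members. There were 101 such rows among 25322 genes, 45 of the TRIM family and 56 of the RNF family. TRIM25 had 2 rows with different gene IDs. Messenger RNA was measured by RNA sequencing in loin muscle (longissimus dorsi, which runs along the spine) of Wei pigs (3 libraries) and Yorkshire pigs (3 libraries). Wei animals had free access to feed and water up to a slaughter weight of 90 kg. Yorkshire animals were kept under like conditions, and their slaughter weight, and the sex and age of both breeds, are absent from the labels. Breed follows the breed label; the sample titles use the codes YH for Wei and LWH for Yorkshire, which are not explained, and an exchange of the labels would turn every direction below. Whether each library stands for its own animal is not stated, so p-values here measure spread between libraries, which may in part be technical. By its Y chromosome reads, given below, Wei replicate 2 came from another animal than the other Wei libraries. For the other libraries this is not known.

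Ubiquitin ligases are the last enzymes of the chain that attaches ubiquitin to proteins, and they choose which protein is marked. Most TRIM proteins, though not all, carry a RING finger, which binds the ubiquitin-conjugating enzyme, followed by B-box zinc fingers and a coiled coil. Many TRIM proteins act in innate immunity or, in striated muscle, on sarcomere and membrane proteins. RNF is a naming class and not a single family of descent: its members share the RING finger and otherwise range from membrane-anchored ligases to RING-between-RING enzymes and chromatin regulators. Of the 101 rows, 95 were annotated with zinc ion binding in the deposited table (94.1%, against 3.9% of all genes), and 51 carried ubiquitin-protein transferase activity (50.5%, against 1.25% of all genes). The term innate immune response was held by 10 TRIM and 2 RNF rows.

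Total counts per library were 15285197 to 22570075 in Wei and 17876646 to 27096747 in Yorkshire, of which TRIM and RNF genes made up 0.206% to 0.247%. Skeletal muscle markers were abundant: the 7 of 10 present under their symbol summed to 84386 to 158453 CPM in Wei and 134783 to 152868 CPM in Yorkshire. CPM is the depth-scaled count after TMM, edgeR's correction for differences in RNA composition, and is not per gene length. Yorkshire replicate 3 stood apart in immune genes. Its 12 lymphocyte markers summed to 46.4 CPM, against 7.99 to 8.65 CPM in Wei and 11.3 and 14.5 CPM in the other Yorkshire libraries. PTPRC, which is not confined to lymphocytes, gave 20.3 CPM of that sum. In Wei PTPRC gave 3.85 to 4.99 CPM, and in the other Yorkshire libraries 5.9 and 7.3 CPM. Of the 12 markers, 6 did not pass the count filter. The 11 macrophage markers summed to 179 CPM in Yorkshire replicate 3, against 46.2 to 55.6 CPM in Wei and 44.1 and 52.6 CPM in the other Yorkshire libraries. The 6 fibroblast markers present, of 7 looked up, summed to 539.7 to 1533 CPM in Wei and 2014 to 3338 CPM in Yorkshire. The lymphocyte and fibroblast sums did not overlap between the breeds. The macrophage sums did, and only Yorkshire replicate 3 lay above the Wei libraries there. Each tested marker of these 3 cell types had a log2 fold change (Wei over Yorkshire) below 0. The median was -1.695 over 6 lymphocyte, -0.751 over 10 macrophage and -1.074 over 6 fibroblast markers. An unadjusted p under 0.05 was found for 6, 1 and 4 of these, against 23.3% of all genes. After adjustment edgeR called 0, 0 and 1 (5.08% of all genes), DESeq2 2, 1 and 4 (9.78%), and limma voom 0, 0 and 1 (4.88%). No marker of these 4 lists was at 0 in all libraries. The part of these cell markers in the breed differences below was not tested, and in bulk tissue fewer cells of a type cannot be told apart from less RNA per cell. Wei replicate 2 alone held Y chromosome reads in number, 6901 against at most 14 elsewhere. By these reads it alone came from an animal with a Y chromosome, so sex differed within Wei. The part of sex in the values below was not tested.

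Levels per gene length were read from the deposited FPKM values. A small number of members made up most of the RNA. In the RNF family the 5 with the highest mean FPKM, RNF11, RNF130, RNF10, RNF14 and RNF146, held 62.3% of the summed family mean. RNF11, a small adaptor of ubiquitin-editing complexes, stood at 221, 241 and 181 FPKM in Wei and 204, 209 and 195 FPKM in Yorkshire. RNF130, the mammalian counterpart of the Drosophila goliath membrane ligase, stood at 219, 175 and 209.7 FPKM in Wei and 168, 191 and 189 FPKM in Yorkshire. For both genes the breeds overlapped.

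RNF10 averaged 86.7 ± 18.9 FPKM in Wei and 81.6 ± 4.96 FPKM in Yorkshire (SD, n = 3 each). RNF14, a RING-between-RING ligase also known as an androgen receptor coactivator, averaged 65.0 ± 7.72 FPKM in Wei and 57.2 ± 1.86 FPKM in Yorkshire. RNF146, which recognises poly-ADP-ribosylated proteins such as axin, averaged 58.9 ± 15.1 FPKM in Wei and 52.1 ± 2.95 FPKM in Yorkshire. Of the 56 RNF rows, 15 had a mean above 10 FPKM and 13 a mean under 1 FPKM, and the family median was 4.34 FPKM.

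The TRIM family was lower, with a median of 0.739 FPKM, 2 rows above 10 FPKM and 25 of 45 rows under 1 FPKM. TRIM72, also called MG53, a muscle protein of membrane repair, was its most abundant member at 107, 89.8 and 88.2 FPKM in Wei and 81.9, 74.5 and 74.8 FPKM in Yorkshire. TRIM8, a regulator of cytokine signalling, came next at 11.4 ± 3.16 FPKM in Wei and 8.83 ± 2.33 FPKM in Yorkshire. TRIM55, also called MURF2, a sarcomere-bound relative of TRIM63, averaged 7.98 ± 1.69 FPKM in Wei and 8.72 ± 1.32 FPKM in Yorkshire. TRIM7 (7.40 ± 1.62 FPKM in Wei and 8.59 ± 2.16 FPKM in Yorkshire) and TRIM23 (7.18 ± 1.76 FPKM in Wei and 7.19 ± 0.606 FPKM in Yorkshire) came next. TRIM8, TRIM55, TRIM7 and TRIM23 had overlapping ranges over the libraries, so their order is not firm. The 5 highest TRIM genes, TRIM72, TRIM8, TRIM55, TRIM7 and TRIM23, held 70.7% of the summed family mean. FPKM values were not scaled for composition, and Wei replicate 1 was the highest library for the summed RNF FPKM (1081, against 907 to 977 in the other 5).

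**Figure D1:**
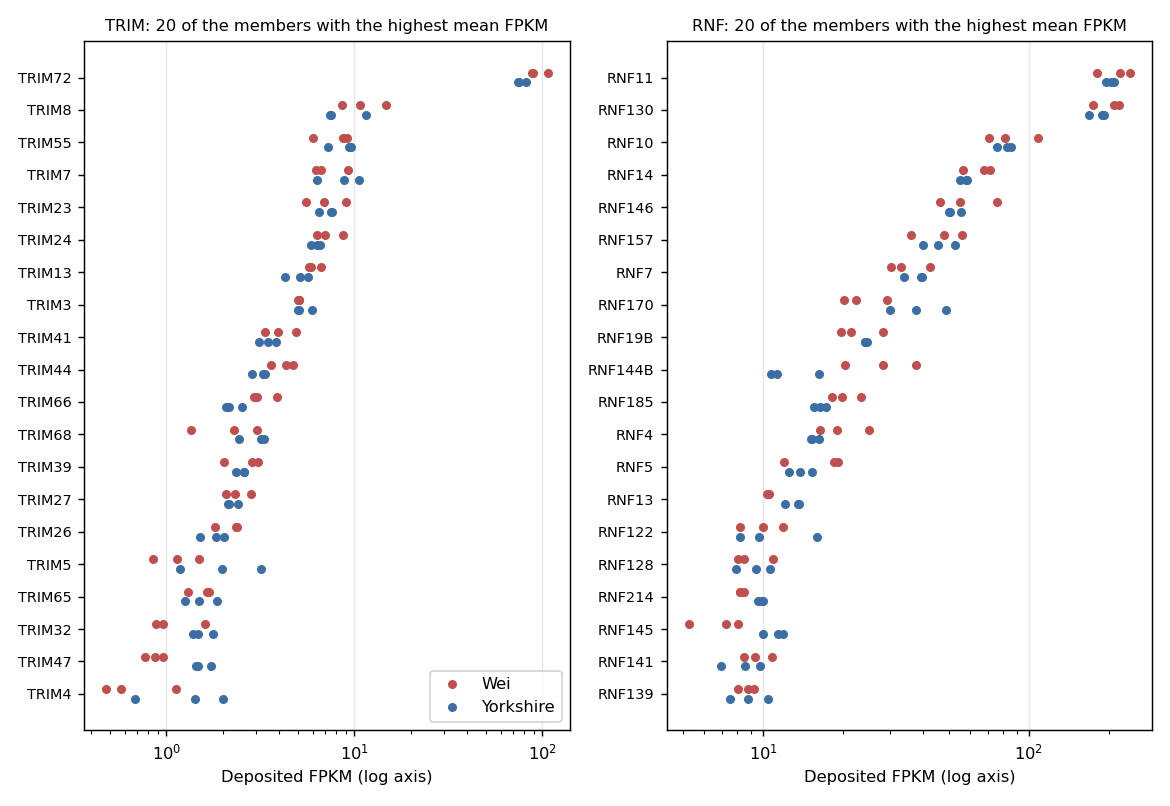
Deposited FPKM of 20 TRIM (left) and 20 RNF (right) members among those with the highest mean, on a log axis, with 1 point per library (3 Wei and 3 Yorkshire). TRIM72 lies at 74.5 to 107 FPKM with TRIM8 next at 7.47 to 14.8 FPKM, and RNF11 and RNF130 lead the RNF family.

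The question was how TRIM and RNF genes differ in loin between the breeds. Most tested TRIM and RNF genes differed little, as did most of all tested genes. Of 101 rows, 73 passed the count filter (27 TRIM, 46 RNF), and 5 of these were called, that is, had a p under 0.05 after Benjamini-Hochberg adjustment over the 13209 genes that edgeR's quasi-likelihood test covered. RNF208 and RNF144B were higher in Wei, and RNF138, TRIM21 and TRIM47 were lower in Wei. The share called, 6.85% of the tested members, was near the 5.08% called over all genes, so the count does not set the families apart. Adjusted p-values below are from this test and adjustment unless another tool is named. By direction, 2 of 73 were higher, against 2.73% of all genes, and 3 of 73 were lower, against 2.35% of all genes.

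By family, 2 of 27 tested TRIM genes passed, none of them higher in Wei with edgeR, and 3 of 46 RNF genes. Before adjustment, a p under 0.05 was reached by 2 TRIM genes higher and 4 lower in Wei, and 3 RNF genes higher and 9 lower. These are 18 of 73, against 23.3% of all genes (11.4% higher and 11.8% lower). DESeq2 called 1 TRIM gene higher, TRIM66, and limma voom 0. Of the 73, 38 had a log2 fold change below 0, against 52.2% of all genes. The median log2 fold change (Wei over Yorkshire) was -0.047 over TRIM and -0.023 over RNF, against -0.023 over all genes. The absolute log2 fold change was under 0.5 for 50 of the 73, against 73.0% of all genes. It exceeded 1 for 7 of the 73, against 7.71% of all genes. The Wei and Yorkshire CPM values did not overlap for 30 of the 73, with 12 higher and 18 lower in Wei, against 29.6% of all genes (14.3% higher and 15.3% lower). The median spread within breeds was an SD of 0.206 (log2 CPM) over TRIM and 0.194 over RNF, against 0.229 over all genes tested.

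The count of members called rested on single libraries, as did that over all genes. With edgeR it was 2 without Wei replicate 2 or without Yorkshire replicate 1, RNF208 and RNF144B both times, and 0 without Wei replicate 1, Wei replicate 3, Yorkshire replicate 2 or Yorkshire replicate 3. In these 4 fits with 0 calls, 16 to 19 members had an unadjusted p under 0.05, and between 60 and 240 of all genes were called. With all libraries 18 of 73 members had such a p, against 23.3% of all genes, and that share is not given here for the 4 fits. DESeq2 on all 6 libraries called 10 members, among them the 5 that edgeR called, against 9.78% of all genes. Of the 10, 3 were higher, against 5.40% of all genes, and 7 lower, against 4.38% of all genes. Limma voom called 4, against 4.88% of all genes, with 2 higher (2.74% of all genes) and 2 lower (2.13% of all genes).

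**Figure D2:**
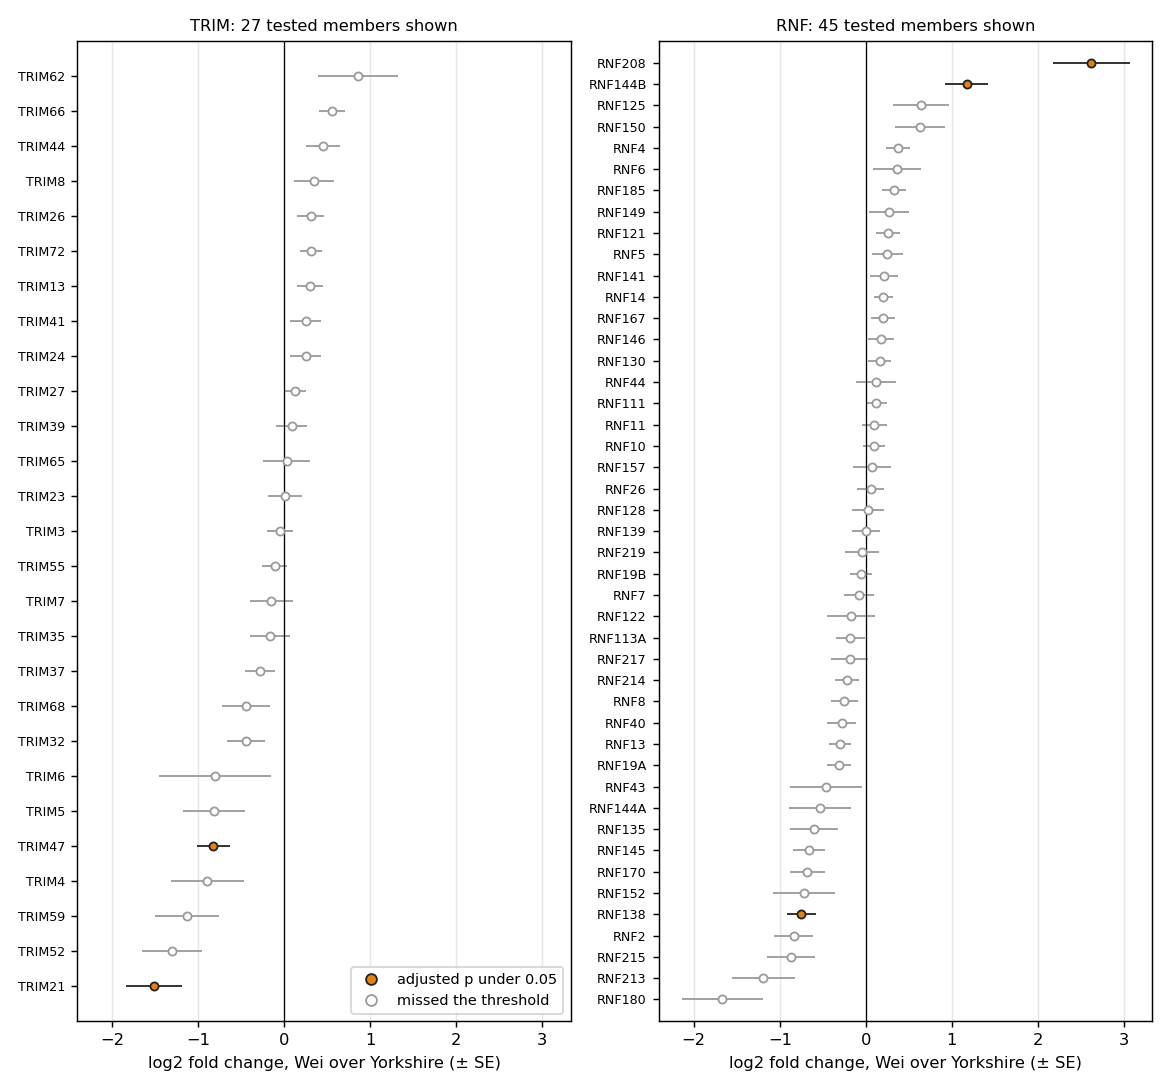
Log2 fold change, Wei over Yorkshire, with its SE from edgeR, for 27 tested TRIM (left) and 45 of the 46 tested RNF (right) members in order of size; filled points passed an adjusted p of 0.05. The points spread on both sides of 0, from -1.67 to 2.62, and the 5 filled points are RNF208, RNF144B, RNF138, TRIM47 and TRIM21.

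Among the members that are known from striated muscle, TRIM72 had 149.7, 143 and 151 CPM in Wei, against 134, 114 and 108 CPM in Yorkshire. The Wei libraries all lay above the Yorkshire ones, and the log2 fold change of 0.31 ± 0.13 (SE) missed the threshold (edgeR's quasi-likelihood test, adjusted p = 0.184). TRIM55 had 39.2, 42.2 and 31.5 CPM in Wei and 36.0, 44.9 and 41.1 CPM in Yorkshire. These overlapped, with a log2 fold change of -0.11 ± 0.15. TRIM32, whose mutation causes a limb-girdle muscular dystrophy in humans, had 7.40, 5.01 and 4.94 CPM in Wei and 7.93, 8.96 and 6.59 CPM in Yorkshire, a log2 fold change of -0.44 ± 0.22 (adjusted p = 0.275). None of these 3 passed with edgeR, DESeq2 or limma voom. An unadjusted p under 0.05 was found for 1 of the 3, TRIM72, against 23.3% of all genes. RNF207, known from heart muscle, had 9 counts over all Wei and 12 over all Yorkshire libraries and was not tested.

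Of the members called lower in Wei, TRIM21 (ENSSSCG00000014780, chromosome 9, 6536121 to 6543906 in Sscrofa10.2) is an interferon-induced ligase that binds antibody on viruses inside the cell. It had 1.48, 0.975 and 1.42 CPM in Wei, against 3.32, 2.60 and 5.14 CPM in Yorkshire. All Wei values lay below all Yorkshire values, and Yorkshire replicate 3 was the highest. The log2 fold change was -1.51 ± 0.33, or 0.351-fold (edgeR's quasi-likelihood test, adjusted p = 0.0404). Without Yorkshire replicate 3 it was -1.19 ± 0.31 (adjusted p = 0.104). The adjusted p lay between 0.0704 and 0.104 with any library left out, and it was 0.0545 with limma voom.

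TRIM47 (ENSSSCG00000017199, chromosome 12, 5492062 to 5496460), a TRIM protein with a B30.2 domain, had 2.66, 2.73 and 2.59 CPM in Wei, against 4.81, 4.37 and 4.95 CPM in Yorkshire. It had the smallest spread within breeds of all tested members (SD 0.06 on the log2 scale), and the breeds were well apart. The log2 fold change was -0.82 ± 0.19 (edgeR's quasi-likelihood test, adjusted p = 0.046), and the adjusted p lay between 0.0889 and 0.122 with any library left out. With all libraries TRIM47 also missed the threshold when scaled by library size alone (adjusted p = 0.0786) and with no count filter (0.0546). Its counts were low, at 140 over all Wei and 338 over all Yorkshire libraries, so its small spread within breeds is not a measure of precision.

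RNF138 (ENSSSCG00000003730, chromosome 6, 108585268 to 108634230), a ligase recruited to DNA double-strand breaks, had 5.74, 5.33 and 6.85 CPM in Wei, against 10.3, 10.6 and 9.36 CPM in Yorkshire. The Wei values all lay below the Yorkshire values. On the log2 scale RNF138 fell by 0.75 ± 0.17 (edgeR's quasi-likelihood test, adjusted p = 0.0429), with an adjusted p of 0.0649 to 0.139 with any library left out. With all libraries it also missed the threshold when scaled by library size alone (adjusted p = 0.0556).

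Of the members called higher in Wei, RNF144B (ENSSSCG00000001076, chromosome 7, 14781095 to 14860574) is a RING-between-RING ligase whose gene is a target of the p53 family. Per gene length it was the highest of the 5, at 28.8 ± 8.67 FPKM in Wei and 12.7 ± 2.98 FPKM in Yorkshire, while the other 4 had means under 3 FPKM in both breeds. RNF144B had 174, 107 and 159 CPM in Wei, against 87.1, 57.1 and 50.9 CPM in Yorkshire. The lowest Wei library, replicate 2, lay above the highest Yorkshire library, replicate 1. The log2 fold change was 1.17 ± 0.25, or 2.25-fold (edgeR's quasi-likelihood test, adjusted p = 0.0375). It passed without Wei replicate 2 (1.36 ± 0.23) and without Yorkshire replicate 1 (1.44 ± 0.23), and missed with each of the other 4 libraries left out, where the log2 fold change was between 1.03 and 1.11. DESeq2 gave an adjusted p of 0.000231.

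RNF208 (ENSSSCG00000005858, chromosome 1, 314152677 to 314153474) had the largest log2 fold change of the tested members, at low counts. It had 30, 13 and 32 counts in Wei, against 8, 3 and 5 counts in Yorkshire. In CPM these were 1.77, 0.845 and 1.57 in Wei and 0.313, 0.166 and 0.182 in Yorkshire, with no overlap. This is a log2 fold change of 2.62 ± 0.45, or 6.14-fold (edgeR's quasi-likelihood test, adjusted p = 0.0223). It passed without Wei replicate 2 and without Yorkshire replicate 1, and its adjusted p was between 0.0641 and 0.101 with each of the other 4 libraries left out. Under a filter of at least 1 CPM in 3 libraries the gene was not tested.

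**Figure D3:**
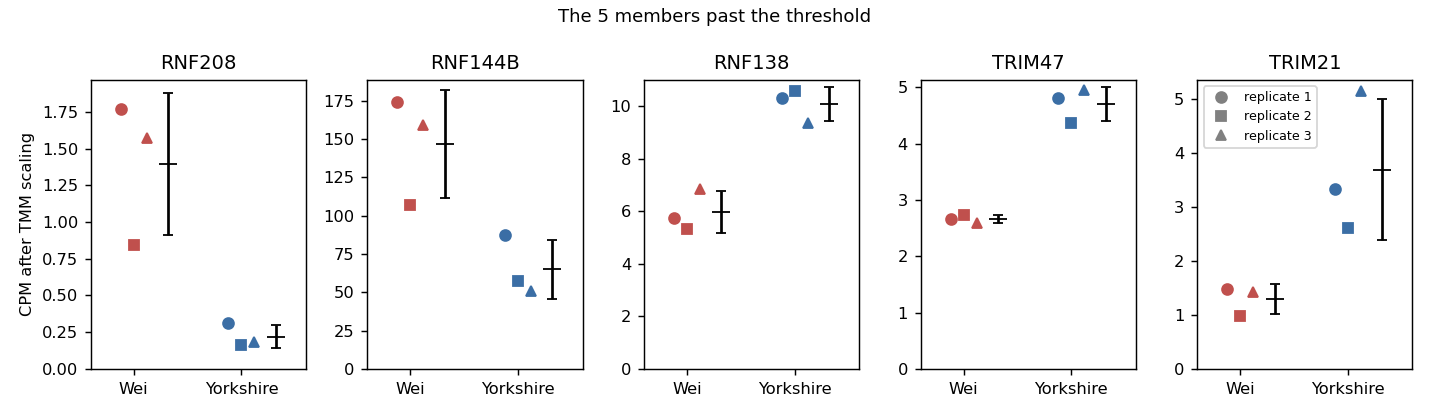
CPM after TMM scaling in each library for the 5 members past the threshold, Wei left and Yorkshire right, with marker shape giving the replicate number and the bar beside the points the mean ± SD (n = 3). In each panel the 3 Wei points lie wholly above (RNF208, RNF144B) or wholly below (RNF138, TRIM47, TRIM21) the 3 Yorkshire points.

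Among the other RING-between-RING members, RNF14 had 192, 207 and 186 CPM in Wei and 174, 172 and 163 CPM in Yorkshire. The Wei values lay above the Yorkshire values, but the log2 fold change of 0.20 ± 0.11 missed the threshold (adjusted p = 0.331). The summed level of the 6 RING-between-RING genes was 432 to 478 CPM in Wei and 343 to 402 CPM in Yorkshire. Without RNF144B the other 5 summed to 305 to 326 CPM in Wei and 293 to 315 CPM in Yorkshire, which overlap. Of the 6, 4 had a log2 fold change below 0, and the median was -0.126. RNF144B alone of the 6 passed with edgeR, DESeq2 or limma voom, which called 5.08%, 9.78% and 4.88% of all genes.

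The chromatin and DNA damage group held RNF138 and 5 others. RNF2, also called RING1B, the catalytic subunit of Polycomb repressive complex 1, had 9.53, 10.5 and 11.8 CPM in Wei, against 26.3, 16.0 and 14.8 CPM in Yorkshire. Yorkshire replicate 1 was the highest and the breeds did not overlap. The log2 fold change of -0.84 ± 0.23 had an adjusted p of 0.0777 with edgeR and 0.0218 with DESeq2, and the log2 fold change was -0.53 without Yorkshire replicate 1. RNF2 overlaps a 7SK gene in the table. RNF4, RNF8, RNF40 and RNF111 had log2 fold changes between -0.28 and 0.37, and none passed with edgeR, DESeq2 or limma voom.

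The membrane-anchored RNF group had 18 tested genes and no call with edgeR. Of the 18, 9 had a log2 fold change above 0 and 9 below, with a median of 0.012. An unadjusted p under 0.05 was found for 5 of the 18, against 23.3% of all genes. All 5 were lower in Wei, against 11.8% of all genes lower. DESeq2 called 2 of the 18, against 9.78% of all genes. Both were lower, against 4.38% of all genes lower, and limma voom called 0. RNF145, a sterol-responsive ligase of the endoplasmic reticulum, had 12.9 ± 3.25 CPM in Wei, with 16.4 CPM as its highest library, against 20.4 ± 1.26 CPM in Yorkshire, with 19.7 CPM as its lowest (log2 fold change -0.66 ± 0.19, adjusted p = 0.0848). RNF180, a ligase for monoamine oxidase A, had 0.473, 0.975 and 0.343 CPM in Wei, against 1.25, 1.77 and 2.59 CPM in Yorkshire (log2 fold change -1.67 ± 0.47, adjusted p = 0.0764). For both genes the breeds did not overlap. The other 3 were RNF170, a ligase for activated IP3 receptors, RNF215 and RNF13, with log2 fold changes of -0.68, -0.87 and -0.30.

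Among cytosolic and signalling RNF genes, 7 were tested and none passed with edgeR, DESeq2 or limma voom. At an unadjusted p under 0.05 there was 1 of the 7, against 23.3% of all genes. RNF6 had a log2 fold change of 0.36 ± 0.28. The most abundant members were close in the breeds: RNF10 had one of 0.094 ± 0.13, RNF11 one of 0.10 ± 0.14, RNF146 one of 0.18 ± 0.15 and, of the membrane-anchored group, RNF130 one of 0.16 ± 0.13.

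Of the transcriptional intermediary TRIM genes, which bind chromatin, TRIM66 had 14.0, 12.0 and 13.3 CPM in Wei, against 9.03, 8.19 and 9.33 CPM in Yorkshire. The Wei values lay above the Yorkshire values, with a log2 fold change of 0.56 ± 0.15 that missed the threshold with edgeR (adjusted p = 0.0647) and passed with DESeq2 (0.0385). TRIM24, a coregulator of nuclear receptors, had a log2 fold change of 0.25 ± 0.18. In the largest TRIM group, of B30.2 and coiled-coil proteins with other roles, 16 genes were tested. TRIM47 alone passed with edgeR (6.25% of the 16, against 5.08% of all genes). The nearest misses there were TRIM52, at 0.449 ± 0.109 CPM in Wei and 1.13 ± 0.179 CPM in Yorkshire (log2 fold change -1.30 ± 0.35, adjusted p = 0.0705), and TRIM59, at 1.06 ± 0.351 CPM in Wei and 2.30 ± 0.691 CPM in Yorkshire (-1.13 ± 0.37, adjusted p = 0.109). TRIM8, TRIM7, TRIM23 and, of the NHL repeat group, TRIM3 had log2 fold changes of 0.35 ± 0.23, -0.15 ± 0.25, 0.011 ± 0.20 and -0.047 ± 0.15.

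The 3 tested members that varied most within breeds were TRIM6, RNF213 and TRIM5, with SDs of 0.73, 0.58 and 0.55 on the log2 CPM scale. Of 11 rows in the interferon and antiviral TRIM group 5 were tested, TRIM5, TRIM6, TRIM21, TRIM26 and TRIM65. TRIM21, TRIM5 and TRIM6, 3 of the 5, were highest in Yorkshire replicate 3, against 19.1% of all tested genes. TRIM5, a restriction factor of retroviruses in primates, had 4.61, 3.90 and 7.39 CPM in Wei, against 9.42, 5.25 and 13.3 CPM in Yorkshire, and the breeds overlapped. Its log2 fold change was -0.81 ± 0.36 (adjusted p = 0.217), and -0.46 ± 0.35 without Yorkshire replicate 3. TRIM6, its neighbour, had one of -0.80 ± 0.65 with all libraries and one of 0.30 ± 0.48 without Yorkshire replicate 3. TRIM5 and TRIM6 belong to a family with similar members, so reads could have been split between them.

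RNF213, a very large ligase with an ATPase core linked to moyamoya disease in humans, had 11.5, 6.18 and 9.89 CPM in Wei, against 15.8, 13.4 and 33.5 CPM in Yorkshire. The breeds did not overlap, and Yorkshire replicate 3 stood far above the other libraries. The log2 fold change was -1.19 ± 0.37 (adjusted p = 0.0998), and -0.67 ± 0.26 without Yorkshire replicate 3. RNF135, a ligase of the RIG-I pathway, had 1.26 ± 0.0966 CPM in Wei and 1.91 ± 0.353 CPM in Yorkshire, a log2 fold change of -0.60 ± 0.28. RNF125, another regulator of that pathway, had 5.80, 7.35 and 5.87 CPM in Wei, against 2.54, 3.26 and 6.34 CPM in Yorkshire. Its log2 fold change was 0.64 ± 0.33 with all libraries (adjusted p = 0.286) and 1.13 ± 0.24 without Yorkshire replicate 3 (adjusted p = 0.075). None of these 3 passed with edgeR or limma voom, and RNF213 passed with DESeq2 (adjusted p = 0.0148).

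The 30 interferon response genes looked up summed to 282, 199 and 239 CPM in Wei, against 271, 245 and 569.8 CPM in Yorkshire, and 20 of the 30 were highest in Yorkshire replicate 3 (66.7%, against 19.1% of all tested genes). Wei replicate 2 stood apart at the other end, with 19 of the 30 lowest there (63.3%, against 17.8% of all tested genes). Of the 29 tested, edgeR called 0, against 5.08% of all genes, and 6 had an unadjusted p under 0.05, against 23.3%. DESeq2 called 3 of the 29, against 9.78% of all genes, and limma voom 0, against 4.88%. Their median log2 fold change was -0.54, and -0.26 without Yorkshire replicate 3. TRIM21, TRIM5 and RNF213 were highest in Yorkshire replicate 3, as were the interferon, lymphocyte and macrophage sums, and lowest in Wei replicate 2, as was the interferon sum. Other tested immune members differed from this. TRIM6 was lowest in Yorkshire replicate 2. TRIM26 and RNF125 were highest in Wei replicate 2, and RNF135 and TRIM65 in Yorkshire replicate 1. TRIM26 had 9.64, 11.1 and 9.15 CPM in Wei, above 7.31, 8.24 and 8.6 CPM in Yorkshire (log2 fold change 0.31 ± 0.16). TRIM65 had a log2 fold change of 0.03 ± 0.27. Without Wei replicate 2 the log2 fold change of TRIM21 was -1.34 ± 0.36 (edgeR, adjusted p = 0.091).

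**Figure D4:**
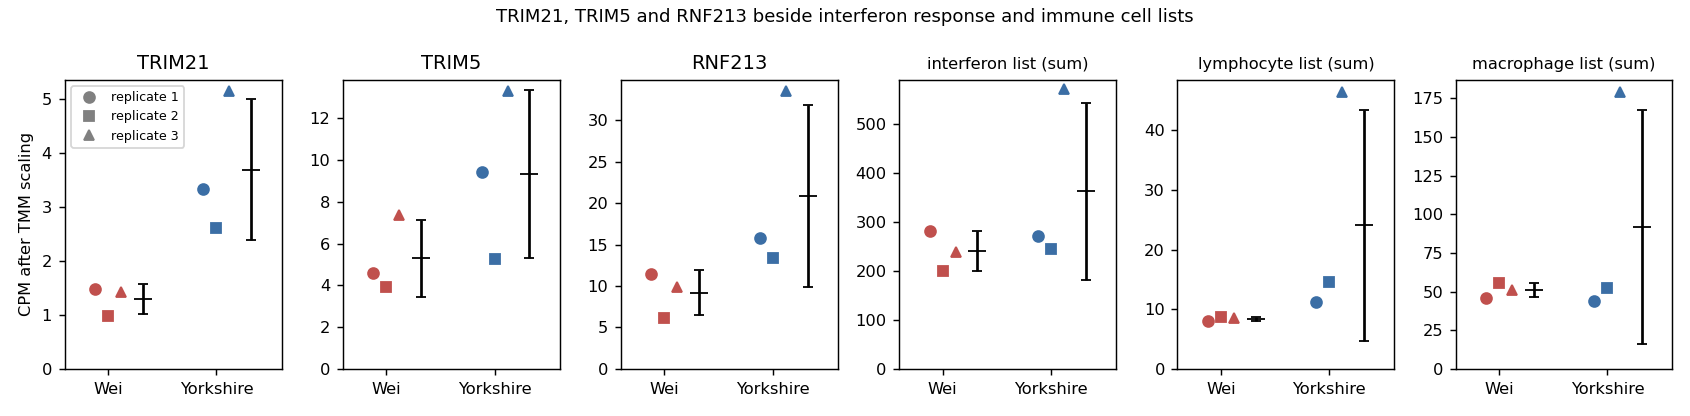
CPM after TMM scaling of TRIM21, TRIM5 and RNF213, and the summed CPM of the interferon response, lymphocyte and macrophage lists, in each library (Wei left, Yorkshire right; marker shape gives the replicate number, the bar is the mean ± SD, n = 3). Yorkshire replicate 3 is the highest library in all 6 panels, at 5.14, 13.3 and 33.5 CPM for the genes and 569.8, 46.4 and 179 CPM for the sums. TRIM26, TRIM65, RNF125 and RNF135, which are not drawn, were highest in other libraries.

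The members are spread over the genome, with 13 rows each on chromosomes 1 and 7, 12 on chromosome 9 and 11 on chromosome 12 in Sscrofa10.2. Neighbours did not share a direction as a rule. Of 22 pairs of neighbouring members less than 1 Mb apart, 13 had both genes tested, and the log2 fold changes had the same sign in 6 and opposite signs in 7. RNF138 and RNF125 lie 24.0 kb apart on chromosome 6, with log2 fold changes of -0.75 and 0.64. TRIM47 and TRIM65 lie 65.4 kb apart on chromosome 12, with log2 fold changes of -0.82 and 0.03. RNF224, 6.8 kb from RNF208, had a count of 0 in each library. Of the 73 tested members 11 overlap another gene in the table, none of the 5 called among them. No source used here states whether counting was by strand.

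The 28 rows that did not pass the count filter had between 0 and 68 counts over all libraries. The 12 with 0 counts everywhere were TRIM10, TRIM15, TRIM17, TRIM31, TRIM40, TRIM42, TRIM43, TRIM58, TRIM67, RNF212B, RNF222 and RNF224. A count of 0 allows up to 3 counts, or 0.109 to 0.195 CPM in a library, for counting error only. The 5 TRIM rows placed in a microtubule group here (TRIM9, TRIM36, TRIM42, TRIM46 and TRIM67) all fell below the filter. That group does not hold every TRIM protein tied to microtubules: TRIM55, placed in the striated muscle group, was tested. TRIM14 had 14 counts over the Wei libraries and 35 over the Yorkshire ones, of which 25 were in replicate 3. The TRIM25 rows, both below the filter, had 11 and 19 counts in Wei and 28 and 49 in Yorkshire, of which 20 and 33 were in replicate 3. TRIM25 is a ligase of the RIG-I antiviral pathway. TRIM54, another sarcomere-bound relative of TRIM63, had no row under that symbol and was not analysed here.

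Other RING ligases, taken from a list of 94 genes of which 73 were in the table and 70 tested, gave 3 genes higher and 3 lower in Wei. The share called was 8.57%, against 5.08% of all genes (2.73% higher and 2.35% lower), and the median log2 fold change was -0.013, against -0.023 over all genes. Higher in Wei were MYLIP, a ligase for the LDL receptor (1.49 ± 0.29), BRCA1, of DNA repair (0.93 ± 0.17), and PDZRN3, a ligase of muscle cell differentiation and synapses (0.77 ± 0.15). Lower in Wei were LONRF1 (-1.54 ± 0.18), UHRF1, which maintains DNA methylation (-3.28 ± 0.64), and BARD1, the partner of BRCA1 (-2.11 ± 0.49). These values are log2 fold changes with their SE, and all 6 had an edgeR adjusted p between 0.00813 and 0.0458.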

How the data were processed

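Wei and Yorkshire loin RNA (3 libraries each) was isolated with TRIZOL and made into TruSeq libraries, per the labels' protocols. CASAVA 1.7, TopHat2 2.0.9, edgeR and Sscrofa10.2 stand in the submitters' processing notes without roles. Read counter, annotation release and strand setting: not given in the sources used here. The file the authors deposited holds raw counts and FPKM for each gene and library, per the file headers. FPKM equalled counts times 1 factor per gene and 1 per library in 4854 genes with over 200 counts in every library (largest log2 residual 3.86e-06). FPKM served for levels between genes and was not tested.

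The main test of the deposited counts was edgeR 4.0.16 in R 4.3.3: filterByExpr at a minimum count of 10, TMM factors, then glmQLFit and glmQLFTest with breed as the one term. Benjamini-Hochberg adjustment covered 13209 genes, with 0.05 as threshold. Each log2 fold change is Wei over Yorkshire. Its SE was obtained by dividing the unshrunken log2 fold change by the root of F. The closest pair of libraries still differed beyond sampling noise (chi-square over degrees of freedom, 24.5). Intervals and floors cover counting error only. In simulated counts of this comparison (13011 genes run, 200 changed), 48% of 2-fold and 97% of 4-fold changes were recovered, and 4% of calls were false. The simulation gave all genes the same relative spread between libraries (dispersion 0.0476), and no library stood apart. The data differ in both, so these rates need not hold for the members called.

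Alternatives were RLE factors, library size alone, no count filter, 1 CPM in at least 3 libraries, DESeq2 1.42.0, voom of limma 3.58.1, a replicate block, symbols added by gene ID, and each library left out.

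The members, role groups and lists were chosen with earlier results of these data known. Genes named with values were the called members, those known from striated muscle, the 5 of highest mean FPKM per family, up to 2 of smallest p in role groups without a call, and the 3 nearest misses per family. All other members and genes named were chosen after their values were seen. One RNF member that entered the fits and counts is not reported here and is left out of the plots. Figures were drawn with matplotlib 3.10.9.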

Additional observations from a re-analysis of the deposited data

How the results depend on the processing

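With all libraries, edgeR called 671 genes and 2 members higher and 3 lower (TRIM 0 and 2, RNF 2 and 1). DESeq2 called 1291 genes, 7 members lower (5 of them RNF) and 1 TRIM gene higher; the cause was not tested. Library size alone left 1 member lower, TRIM21, and 0 RNF genes lower, and so did the replicate block, under which TRIM47 (adjusted p = 0.0872) and RNF138 (0.0783) missed the threshold. Same-numbered libraries had deviations from their breed means that correlated at 0.14, -0.0066 and 0.022, and 2 of 6 libraries correlated best with their own number; the numbers therefore do not count as pairs. No count filter left 1 TRIM gene lower, TRIM21, and limma voom 1, TRIM47. The filter of 1 CPM left 1 member higher, an RNF gene, since RNF208 was not tested under it. Leaving out 1 library, with fewer samples in each fit, left 60 to 394 genes, 0 to 2 members higher (all of them RNF genes), 0 lower, and 0 TRIM genes in either direction. Over all alternatives the median log2 fold change ranged from -0.123 to 0.025 for TRIM and from -0.082 to 0.062 for RNF. For the members named by rule (not those chosen after their values were seen, such as TRIM6), 314 values under the alternatives kept direction and side of the threshold, 32 missed it, 5 passed it newly and 11 turned sign, none of these 11 past the threshold. TRIM23 did so under library size alone (-0.0045), limma voom (-0.01) and the replicate block (-0.0059), and ranged from -0.20 to 0.12 with 1 library left out. With 1 library left out, TRIM3 ranged from -0.12 to 0.031, TRIM7 from -0.43 to 0.025, TRIM55 from -0.20 to 0.0023 and RNF11 from -0.0057 to 0.16. Members with under about 1 CPM rest on few counts, which limits their precision.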

Other observations

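A table of gene names gives a TRIM or RNF symbol, by gene ID, to 15 rows that were not members by the symbol in the deposited table, and 12 of these passed the count filter. RNF123, the catalytic subunit of the KPC ligase complex, was the 1 gene called among the 12, higher in Wei by 0.69 ± 0.14 on the log2 scale (edgeR, adjusted p = 0.0361). The share called was 8.33%, against 5.08% of all genes (2.73% higher in Wei), and 1 call does not set these rows apart. RNF103, a ligase of the endoplasmic reticulum, had a log2 fold change of 0.64 ± 0.21 (adjusted p = 0.112), and RNF31, the catalytic subunit of the linear ubiquitin chain complex, one of 0.34 ± 0.13 (0.166). A further row with the symbol TRIM2 had one of -0.93 ± 0.30 (0.106), and RNF25 one of -0.71 ± 0.24 (0.12). TRIM33, a transcriptional intermediary, had one of -0.01 ± 0.19.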
